A study of Arabidopsis thaliana with 12 samples.

Results

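Transcript signals of roots were set against those of shoots in control plants of Arabidopsis thaliana, the thale cress, a model species of plant genetics. The comparison used the 3 arrays titled control-root and the 3 arrays titled control-shoot, which are 6 of the 12 Affymetrix ATH1 arrays of a study of plants kept under weak, long-lasting caesium-137 radiation, and it covered all 22746 probe sets that are not array controls. The other 6 arrays hold roots and shoots of plants titled cs, with 3 arrays per organ. These plants were taken from the series title to be the caesium-137-exposed ones. Their arrays entered the control comparison only through the spread behind its p-values. The labels give 1.0 as the developmental stage of every array and the organ of each. They name no accession, no mutation, no growth condition and no treatment of the control plants, and they do not say that the replicates came from separate plants. The p-values below therefore measure only the spread between these arrays, which may be technical.

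Roots anchor the plant, take up water and mineral ions and release metabolites into the soil, and their plastids are mostly not green. Shoots of a young plant are mostly leaf tissue, in which chloroplasts harvest light and fix carbon dioxide. Chloroplast proteins are encoded partly by the plastid's own genome and mostly by nuclear genes. Many plant enzymes belong to large gene families whose members differ in the organ where they are expressed.

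The values are MAS5 signals, a linear measure of a probe set's brightness, and each array had been scaled so that its trimmed mean was 100. Differences are control root minus control shoot on the log2(signal + 11) scale, so a positive value means higher in root. This scale understates the ratio of dim probe sets. Probe sets differ in how strongly they bind their transcript, so an organ's signal is compared with the other organ's for the same probe set or list. Where signals are summed or signal differences are ranked, the order is one of probe brightness and not of transcript level. In whole organs, fewer cells of a type and less RNA per cell cannot be told apart.

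Within an organ the log2 signals of the control arrays correlated at 0.966 to 0.977 for roots and 0.945 to 0.976 for shoots, and between organs at 0.689 to 0.747. Control shoot replicate 1 correlated at 0.955 and 0.945 with shoot replicates 2 and 3, which correlated at 0.976 with each other. Several genes below stood apart on this array, among them PORB, which was low, and XTH32, which was high. Root markers measured by a probe set of their own were PYK10, EXPA7 and EXPA18, whose summed signal was 3109 to 3955 on the root arrays and 423 to 605 on the shoot arrays. PYK10 held most of this sum. EXPA7 and EXPA18 were dimmer, with mean signals of 89.5 and 116 in control roots and 25.5 and 33.4 in control shoots. The 10 shoot markers (subunits of the photosystems, the light-harvesting antenna and the ATP synthase, with RCA and PRK) summed to 625, 785 and 1560 on the root arrays, against 37282 to 41652 on the shoot arrays. No marker was listed at 0 on any of these arrays. The value of 1560 belonged to control root replicate 1, which was also the highest root array for 87 of the 130 members of the gene families below that were at least 4-fold higher in shoot. Control shoot replicate 3 was the highest shoot array for 24 of the 39 members at least 4-fold higher in root, and control shoot replicate 1 the lowest for 23. Without control shoot replicate 1, the counts of probe sets at least 4-fold higher were 859 in root and 1306 in shoot. Without control root replicate 1 the count of probe sets at least 4-fold higher in shoot was 1284, against 1280 with it, and without control shoot replicate 3 the count at least 4-fold higher in root was 910, against 858 with it.

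Across all probe sets, 6062 (26.7%) were higher in root and 3691 (16.2%) were higher in shoot at an adjusted p under 0.05 in limma. The order turned with the size of the difference. At least 4-fold higher in root were 858 probe sets (3.77%), and at least 4-fold higher in shoot were 1280 (5.63%), together 2138 (9.4%). These counts depended on the pseudocount, with 1332 in root at the lower one tried, and 347 in root and 785 in shoot at 44. The median difference over all probe sets was 0.11 on the log2 scale, and centring each array on its median brought it to 0.00 and left 5127 probe sets higher in root and 4246 higher in shoot. The share of calls that were higher in root was 62.2% as deposited, 57.8% after quantile normalization and 54.7% after median centring. Of the 55 families described here, 30 had called members in both directions, 14 had calls higher in root and none higher in shoot, and 11 had calls higher in shoot and none higher in root. Their 771 probe sets held 170 calls higher in root and 231 higher in shoot. Counts of family members below are to be read beside the 26.7% and 16.2% of all probe sets.

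Among photosystem, light-harvesting and chloroplast ATP synthase subunits encoded in the nucleus, 8 of 8 members were at least 4-fold higher in shoot, with a median log2 difference of -5.45. Enzymes of carbon fixation and photorespiration behaved the same way, with 6 of 6 at least 4-fold higher in shoot and a median of -5.51. Against the background of 5.63% of all probe sets, all members of both lists passed this rule. The 8 subunits are the shoot markers above other than RCA and PRK, which are on the second list. Their direction is therefore not separate from that marker check.

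LHCB4.2, a minor antenna protein of photosystem II, had signals of 105, 41.9 and 48 in control roots, against 5134, 5109 and 4813 in control shoots. The 3 root arrays lay far below the 3 shoot arrays, and root replicate 1 was the highest of the root arrays. The log2 difference was -6.14 (SE 0.58, adjusted p = 3.62e-06, n = 3 each). PRK, phosphoribulokinase of the Calvin cycle, gave 70.8, 22.3 and 21.7 in control roots, against 3935, 3177 and 2990 in control shoots. Its difference was -6.23 (SE 0.35, adjusted p = 5.41e-08). SBPASE, a second Calvin cycle enzyme, gave 26.8, 31.2 and 32.4 in control roots, against 3297, 2414 and 2227 in control shoots. For SBPASE the root arrays lay within a few units of each other, and the difference was -5.99 (SE 0.36). RCA, the activase of Rubisco, was at 299, 71.1 and 84.5 in control roots, against 5910, 4948 and 5100 in control shoots. Here root replicate 1 stood apart from the other root arrays and still lay below every shoot array. LHCB4.3 showed the smallest difference of the subunits at -2.07 (SE 0.46), with mean signals of 36.2 ± 3.05 in roots and 217 ± 151 in shoots (SD, n = 3 each).

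**Figure D1:**
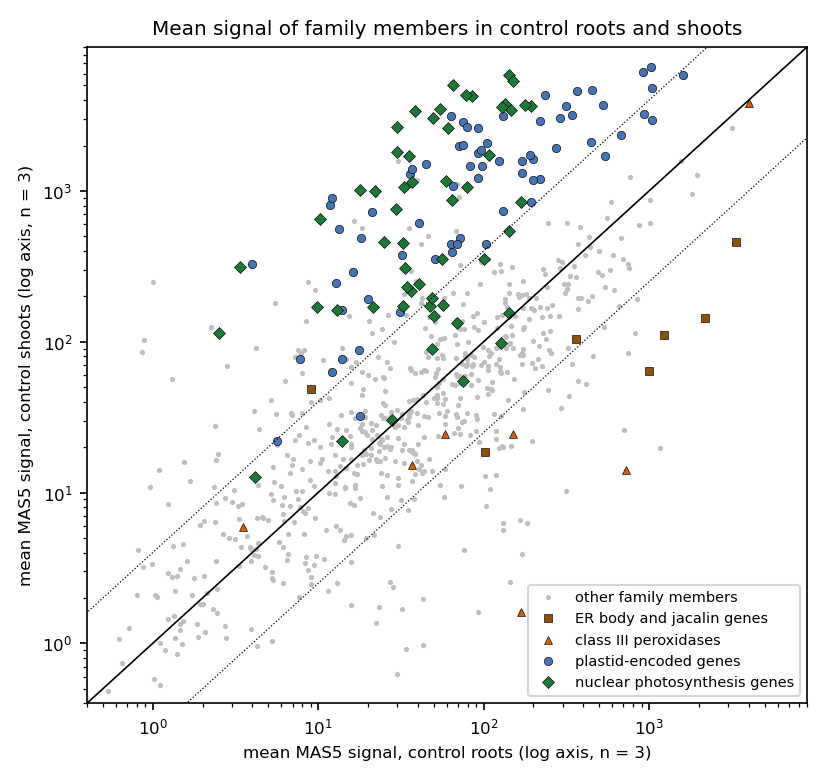
Mean MAS5 signal of each family member in control roots (horizontal, log axis) and control shoots (vertical, log axis), n = 3 arrays each; the solid line marks equal signal and the dotted lines a 4-fold ratio. Nuclear photosynthesis and plastid-encoded genes lie mostly above the upper dotted line, endoplasmic reticulum (ER) body genes mostly below the lower one, and the peroxidase at the upper right end of the solid line is PRXR1.

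Proteins that assemble the photosynthetic complexes or shape the thylakoid followed at a smaller median of -3.13, with 25 of 27 called higher in shoot, 20 of them at least 4-fold, and 0 higher in root. CaS, a thylakoid calcium-sensing protein, was at -5.49 (SE 0.39), from signals of 43.1, 20.1 and 26.1 in control roots and 2443, 1424 and 1583 in control shoots. The curvature proteins CURT1A and CURT1C were lower in root at -4.74 and -5.24. CURT1D was not called, at -0.01 (SE 0.31, adjusted p = 0.984). Its signals of 143, 144 and 143 in control roots fell inside the range of 86.2 to 238 in control shoots. TAAC, a thylakoid ATP/ADP carrier, was the other member not called, at 0.32 (SE 0.19, adjusted p = 0.195).

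In the synthesis of chlorophyll, haem and carotenoids, 10 of 14 members were higher in shoot and 1 was higher in root. PORB, which reduces protochlorophyllide in the light, had 53.6, 82.9 and 47.5 in control roots, against 817, 3610 and 3394 in control shoots. Shoot replicate 1 was low for PORB but still above every root array, and the difference was -4.94 (SE 0.81, adjusted p = 0.000335). CHLI2 of magnesium chelatase was at -4.49 and the methyltransferase CHLM at -3.87. Of enzymes that also serve haem synthesis, HEMB1 was at -2.25 and GSA1 at -1.85. Of the isoforms of glutamyl-tRNA reductase, HEMA2 was slightly higher in root at 0.38 (adjusted p = 0.0358), a call that was lost in 5 of the 6 fits without 1 control array (all but that without control shoot replicate 3), and HEMA3 was not called at -0.64 (adjusted p = 0.136).

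Plastid-encoded genes were represented by 69 probe sets, of which 67 were called higher in shoot, 55 at least 4-fold, and 0 higher in root. Their median signal was 62.6 to 107 on the root arrays and 1131 to 1570 on the shoot arrays. By complex, medians of the log2 difference were -4.16 for the 15 photosystem II genes, -4.13 for the 10 NDH genes, -4.04 for the 6 ATP synthase genes and -3.91 for the 5 photosystem I genes. They were -2.72 for the 15 ribosomal protein genes, -2.25 for the 6 cytochrome b6f genes and -2.17 for the 4 genes of the plastid RNA polymerase. The groups overlapped, from -5.16 to -1.87 for photosystem II, from -5.43 to -0.99 for NDH and from -3.33 to -0.59 for ribosomal proteins, and differences between them were not tested. The photosystem I core gene psaA was at -5.59 and the NDH gene ndhJ at -5.43, an order that turned with the lower pseudocount tried, at -5.81 and -6.28. Genes with substantial root signal also occurred. The ATP synthase gene atpB had 1095, 1030 and 937 in control roots, against 7083, 6069 and 6814 in control shoots, a log2 difference of -2.69 (SE 0.28). psbM had 1609, 1372 and 1816 in control roots, against 6604, 5660 and 5365 in control shoots, at -1.87 (SE 0.21). The 2 plastid genes without a call were petG at -2.29 and rps14 at -0.59.

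By share of signal, the 55 nuclear photosynthesis probe sets held 0.0967% to 0.148% of the summed signal of a root array and 2.3% to 2.44% of that of a shoot array. Plastid-encoded probe sets held 0.435% to 0.596% on root arrays and 3.32% to 4.02% on shoot arrays. The groups of arrays did not overlap in either share.

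**Figure D2:**
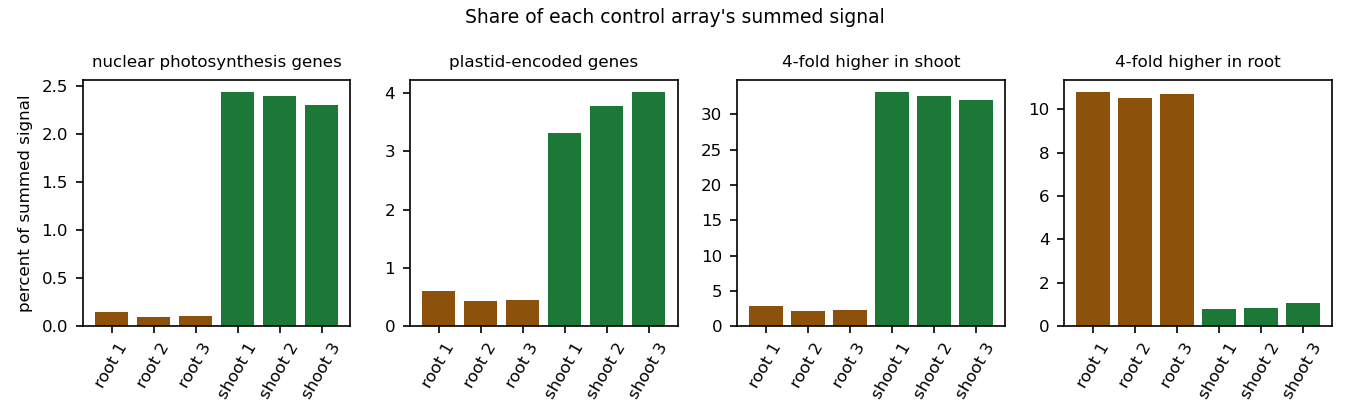
Percent of each control array's summed MAS5 signal held by 4 lists of probe sets, with control root replicates 1 to 3 left of control shoot replicates 1 to 3; each bar is 1 array and each panel has its own axis from 0. The last 2 panels show lists chosen for their difference and are a description only: the list 4-fold higher in shoot held 2.16% to 2.89% on root arrays and 32% to 33.2% on shoot arrays, and the list 4-fold higher in root held 10.5% to 10.8% and 0.77% to 1.06%.

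Starch enzymes followed photosynthesis at a smaller size. Of 8 members, 6 were higher in shoot, 0 higher in root and 0 reached 4-fold, with a median of -1.24. SBE2.2, a starch-branching enzyme, had 81.5, 76.1 and 58 in control roots, against 202, 418 and 348 in control shoots, at -1.96 (SE 0.28). The ADP-glucose pyrophosphorylase subunits APL3 and APL4 were at -1.28 and -1.23, APL4 with a mean signal of 6.93 in roots and 32.6 in shoots. ALDH11A3, a cytosolic glyceraldehyde-3-phosphate dehydrogenase that reduces NADP, had 53.9, 33.2 and 31.8 in control roots, against 1443, 1075 and 1051 in control shoots. Its log2 difference was -4.58, while 5 of the 8 aldehyde dehydrogenases were higher in root, with ALDH10A9 at 1.19 and ALDH2C4 at 1.15.

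On the root side the list with the highest median was that of the ER body, a compartment of Brassicaceae that stores a beta-glucosidase, and of the jacalin-type lectins associated with it. Of 7 members, 6 were higher in root, 4 of them at least 4-fold, and 1 was higher in shoot, with a median of 2.85, against a background of 26.7% of probe sets higher in root. PYK10, the main beta-glucosidase of root ER bodies, had 3367, 2901 and 3760 in control roots, against 347, 475 and 561 in control shoots. Its log2 difference was 2.85 (SE 0.28, adjusted p = 5.74e-06). The lectin JAL34 had 2194, 2201 and 2142 in control roots, against 82, 164 and 187 in control shoots, at 3.89 (SE 0.34). NAI2, needed for ER body formation, had 1069, 956 and 989 in control roots, against 52.3, 67.7 and 71.2 in control shoots, at 3.77 (SE 0.13). For all 3 genes no shoot array reached a root array. The transcription factor NAI1, which regulates these genes, had mean signals of 102 in roots and 18.5 in shoots, a log2 difference of 1.92 (SE 0.23). JAL23 ran the other way at -1.49 (SE 0.30), from mean signals of 9.08 in roots and 48.7 in shoots. In summed signal the list reached 8227 ± 551 in roots and 951 ± 240 in shoots (SD, n = 3 each).

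**Figure D3:**
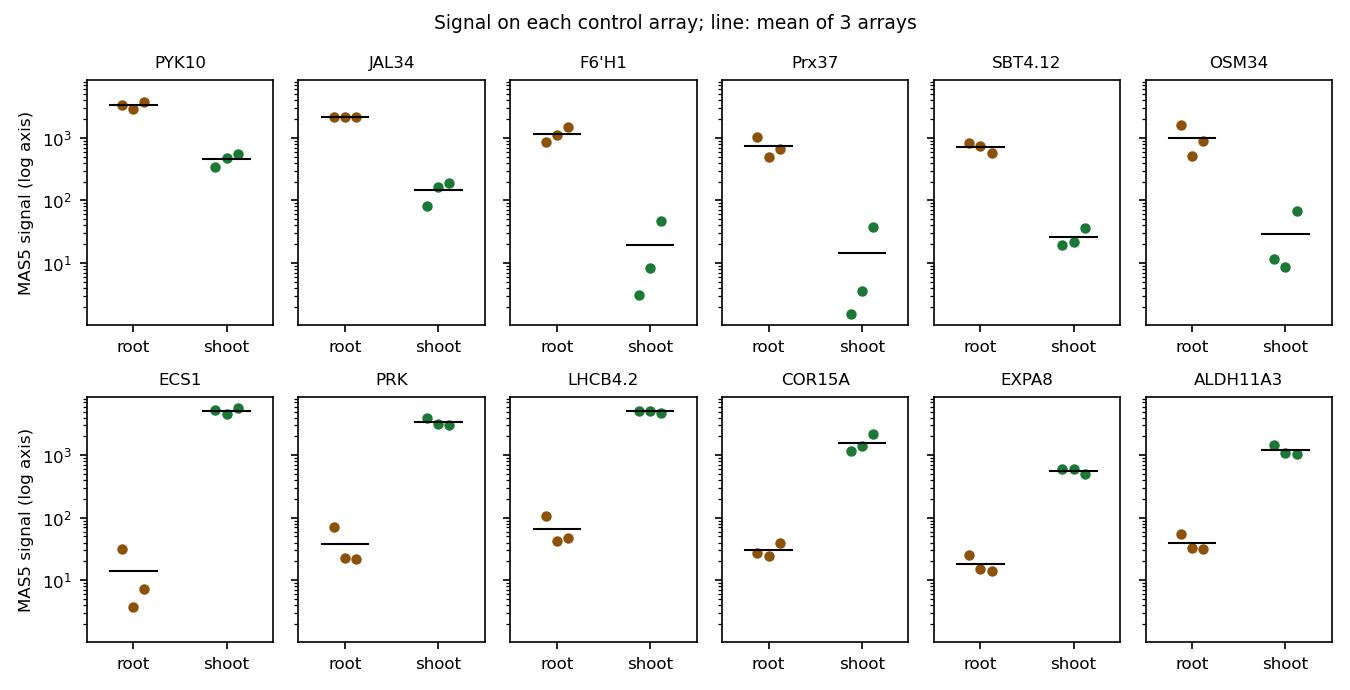
MAS5 signal (log axis) of 12 genes on each control array, with the 3 root arrays left of the 3 shoot arrays in each panel; points are arrays and lines are means of 3. The upper row holds genes higher in root and the lower row genes higher in shoot, and root and shoot arrays do not overlap in any panel.

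Among soluble phenolics, 1 gene of coumarin synthesis stood out. The gene for F6'H1 (AT3G13610), the hydroxylase that opens the route to scopoletin, had 869, 1121 and 1488 in control roots, against 3.01, 8.33 and 47.4 in control shoots. The log2 difference was 5.51 (SE 0.69, adjusted p = 3.7e-05), and shoot replicate 3 was the highest shoot array. With the lower of the other pseudocounts tried the same difference was 6.27, and with the higher, 44, it was 4.27. In the same list of 9 genes of coumarin and flavonoid synthesis, UGT78D1, a flavonol rhamnosyltransferase, was lower in root at -3.01. Its signals were 22, 2.01 and 1.49 in control roots and 209, 108 and 95.4 in control shoots. CHIL was also lower in root, with overlapping arrays (5.05 to 61.2 in control roots, 48.2 to 244 in control shoots, adjusted p = 0.0463). Its call was lost in 4 of the 6 fits without 1 control array, namely control root replicate 2 or 3 or control shoot replicate 1 or 3. The remaining 6 members were not called.

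On the list of phenylpropanoid and lignin enzymes, 6 of 10 members were called higher in root, with a median of 1.13. The 1 called higher in shoot was 4CL8, at -0.75. Among the calls in root were the 3 monolignol glucosyltransferases and FACT, so the count is not one of lignin monomer synthesis alone. UGT72E2 had 609, 211 and 298 in control roots, against 66.7, 46.9 and 51.8 in control shoots, at 2.41 (SE 0.34), and UGT72E3 and UGT72E1 were at 1.97 and 1.84. FACT, an acyltransferase of suberin-associated waxes, was at 1.70 (SE 0.20). HCT, a shared step of lignin monomer synthesis, was not called, at -0.17 (adjusted p = 0.687), with means of 555 in roots and 666 in shoots. BGLU46, a beta-glucosidase that acts on monolignol glucosides, had 134, 209 and 155 in control roots, against 1.26, 2.73 and 15.8 in control shoots, at 3.40 (SE 0.33).

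Class III peroxidases, secreted enzymes that cross-link wall phenolics and handle hydrogen peroxide, had 7 probe sets whose annotation names the family, with 4 higher in root and 0 higher in shoot. Prx37 had 1033, 500 and 658 in control roots, against 1.52, 3.58 and 37.4 in control shoots, a log2 difference of 5.10 (SE 0.48). PRX72 (AT5G66390), linked to lignification, had 181, 174 and 152 in control roots, against 1.49, 1.76 and 1.61 in control shoots, at 3.83 (SE 0.30). PRX25 (AT2G41480) was at 2.19. PRXR1 was bright in both organs and was not called. Its signals of 4111, 3839 and 4146 in control roots overlapped 3594, 3713 and 4239 in control shoots, at 0.07 (SE 0.18, adjusted p = 0.795). Scaling decided its call: after quantile normalization it was called higher in root at 0.67, and after median centring it was at -0.04.

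Wall-loosening proteins were divided by member. Of 19 expansins, which loosen the bonds between wall polymers, 8 were higher in root and 4 higher in shoot, with a median of 0.87. The called shares were 42.1% and 21.1%, beside 26.7% and 16.2% of all probe sets. EXPA4 had 820, 867 and 837 in control roots, against 240, 171 and 164 in control shoots, at 2.09 (SE 0.21). EXPA7 and EXPA18, expansins of root hairs, were at 1.56 and 1.52, with mean signals of 89.5 and 116 in roots and 25.5 and 33.4 in shoots. EXPA8 had the opposite pattern, with 25.6, 15.3 and 13.9 in control roots against 596, 604 and 506 in control shoots, at -4.32 (SE 0.23). EXPA16 was at -1.99.

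Xyloglucan endotransglucosylases, which cut and rejoin xyloglucan chains, had 4 of 10 members higher in root and 2 higher in shoot. The called shares were 40% and 20%, beside 26.7% and 16.2% of all probe sets. XTH18 had 134, 73.8 and 70.7 in control roots, against 2.26, 1.04 and 1.52 in control shoots, at 2.99 (SE 0.30). Its neighbour in the genome, XTH19, was at 2.34, and XTH21 and XTH20 were at 2.17 and 1.95. XTH32 was lower in root at -2.85 (SE 0.48), and its shoot value rested partly on replicate 1, with 847 beside 253 and 233. The cellulase genes GH9B13 and GH9C1 were higher in root at 2.67 and 2.26, the only 4-fold calls among 15 members of that family. Of 25 TBL genes, a family with polysaccharide O-acetyltransferases, 12 were higher in root and 4 in shoot. TBL36 had 821, 702 and 720 in control roots, against 41.1, 88.9 and 122 in control shoots, at 3.10 (SE 0.30). CSLD2, a cellulose synthase-like protein of root hairs, was at 1.40 with means of 249 in roots and 87.5 in shoots.

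**Figure D4:**
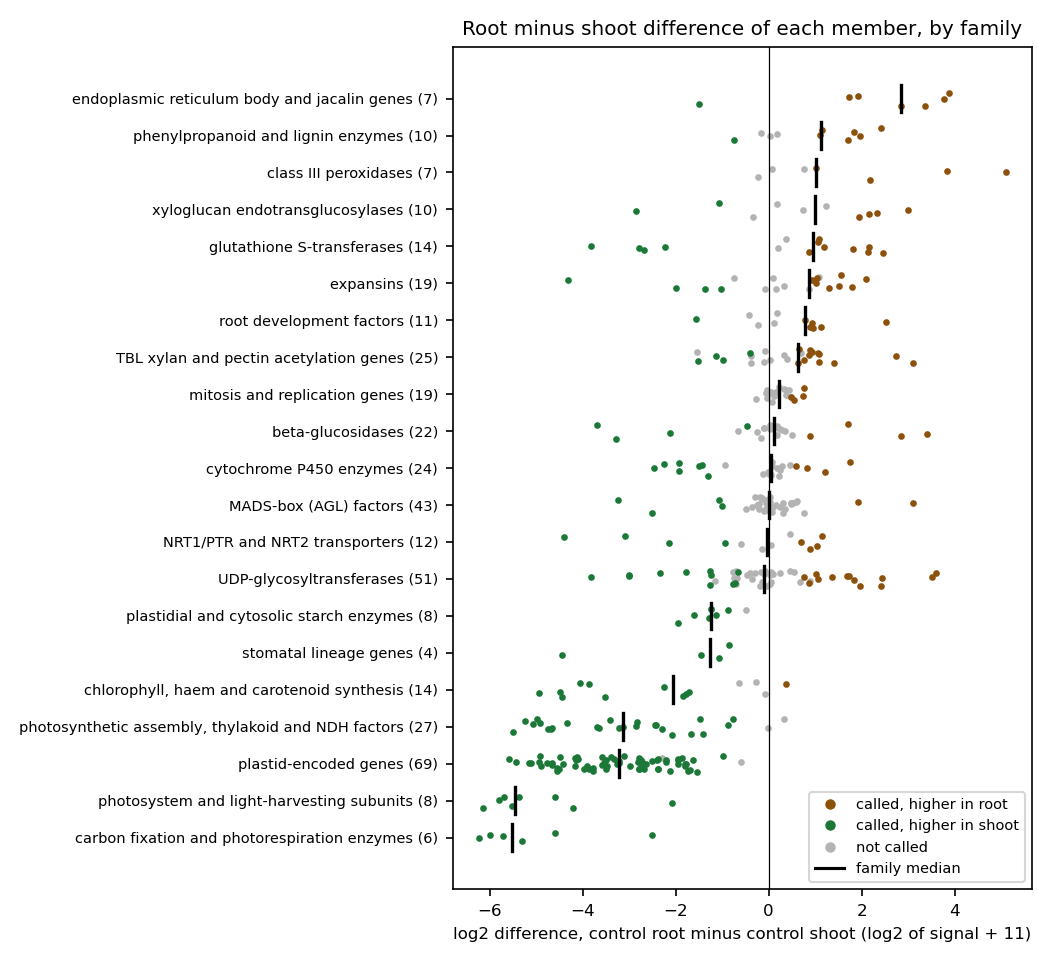
Log2 difference of every member (point), control root minus control shoot, in 21 families ordered by their median (vertical bar), with the number of probe sets in parentheses; colour marks the limma call at adjusted p under 0.05. Medians range from 2.85 for the ER body and jacalin genes to -5.51 for carbon fixation and photorespiration, and the large enzyme families in the middle hold members far to both sides.

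Enzyme families of conjugation and oxidation had members far to both sides. Of 51 UDP-glycosyltransferases, 13 were higher in root and 11 higher in shoot, with 4 at least 4-fold in each direction and a median of -0.09. The called shares were 25.5% and 21.6%, beside 26.7% and 16.2% of all probe sets. UGT76B1, which glucosylates isoleucic acid and defence signals, had 149, 215 and 148 in control roots, against 0.683, 4.01 and 6.98 in control shoots, at 3.61 (SE 0.27). UGT71C1 was at 3.52, with means of 145 in roots and 2.56 in shoots. UGT88A1 had 90.3, 52.4 and 65.2 in control roots, against 1266, 1051 and 1015 in control shoots, at -3.83 (SE 0.18).

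Glutathione S-transferases, which conjugate glutathione to reactive compounds, also divided, with 8 of 14 members higher in root and 4 higher in shoot. The summed signal ran against the count of members, at 1300 ± 34.8 in roots and 2932 ± 154 in shoots (SD, n = 3 each). GSTU20 supplied most of the shoot signal, with 251, 48.8 and 82.9 in control roots against 1414, 1694 and 1694 in control shoots, at -3.82 (SE 0.50). GSTL3 and GSTU18 were at -2.80 and -2.68. On the root side ATGSTF13 had 112, 109 and 136 in control roots, against 12.8, 9.08 and 17.1 in control shoots, at 2.45 (SE 0.21). GSTU28 and GSTU26 were at 2.17 and 2.14.

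**Figure D5:**
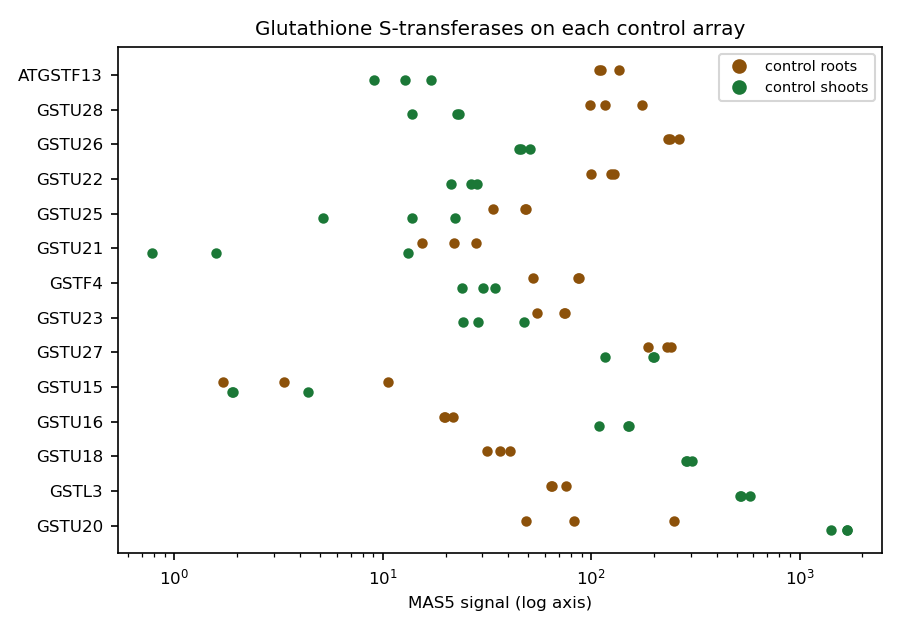
MAS5 signal (log axis) of the 14 glutathione S-transferase probe sets on each control array, ordered by root minus shoot difference, with root points drawn above shoot points. Root and shoot points are apart for all 12 called members and mixed for GSTU27 and GSTU15, and GSTU20 reaches 1414 to 1694 in shoots.

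Apart from PYK10 and BGLU46, the 22 beta-glucosidases held few large differences in root, while BGLU33, BGLU44 and BGLU40 were lower in root at -3.69, -3.29 and -2.12. For BGLU44 shoot replicate 1 gave 326, beside 1189 and 1222 on the other shoot arrays, and 57.4 to 91.2 on the root arrays. Of 24 cytochrome P450 genes, 4 (16.7%) were higher in root and 7 (29.2%) higher in shoot, beside 26.7% and 16.2% of all probe sets. CYP71B5 and CYP71B26 were at -2.47 and -2.26, and CYP71B37 was at 1.75. Serine carboxypeptidase-like genes had 5 of 29 (17.2%) higher in each organ, from scpl31 at 1.96 to scpl46 at -2.67. In the subtilases, secreted proteases, SBT4.12 had 817, 740 and 573 in control roots, against 19.3, 22 and 36.4 in control shoots (adjusted p = 2.17e-07). Its root and shoot arrays were far apart.

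Neighbouring genes of a family were set side by side as a description, with no share expected for pairs called independently. Among 53 pairs of adjacent protein-coding genes of the same family in the TAIR10.1 annotation, both genes were called in the same direction in 11 pairs and in opposite directions in 6, beside 26.7% of all probe sets called higher in root and 16.2% higher in shoot. In the other 36 pairs at least 1 gene was not called. The opposite pairs were GSTU21 at 1.08 with GSTU20 at -3.82, UGT71C3 at 2.44 with UGT71C4 at -1.26, and UGT84A4 at 1.01 with UGT84A3 at -2.34. CYP71B29 with CYP71B28, CYP71B23 with CYP71B22 and scpl28 with scpl26 completed them. Pairs in the same direction included JAL34 with JAL33, XTH18 with XTH19 and COR15A with COR15B. None of the genes in these named pairs was measured by a probe set marked as shared between transcripts, although copies this close in sequence may still bind each other's probes.

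Of 12 transporters of the NRT1/PTR and NRT2 families, which carry nitrate, peptides and glucosinolates, 4 (33.3%) were higher in each organ. The 3 at least 4-fold were all higher in shoot. Over all probe sets, 26.7% were higher in root and 16.2% higher in shoot. NPF6.4 (AT3G21670) had 21.1, 22.5 and 5.76 in control roots, against 1133, 455 and 312 in control shoots, at -4.41 (SE 0.47). NPF6.2 (AT2G26690), a nitrate transporter of leaf petioles, was at -3.08, and NPF3.1 (AT1G68570) at -2.14. In all 3 genes shoot replicate 1 was the highest shoot array. The members higher in root had smaller values, with NPF4.3 (AT1G59740) at 1.14 and NPF5.13 (AT1G72125) at 1.03. Among SWEET sugar transporters, SWEET11, which exports sucrose for phloem loading in leaves, had 31.6, 30.2 and 43.9 in control roots, against 814, 461 and 418 in control shoots, at -3.59 (SE 0.30). SWEET16, a vacuolar sugar transporter, was the 1 of 16 members higher in root, at 1.27 (SE 0.26). The tonoplast sugar transporter TMT1 was at 1.11. CHX20, a cation exchanger of guard cells, was at -1.72, with mean signals of 5.16 in roots and 41.2 in shoots.

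Stress-related peptides and proteins also had strong members on both sides. The defensins PDF2.5 and PDF2.1 were higher in root at 4.01 (SE 0.28) and 3.53 (SE 0.40). PDF2.5 had 315, 272 and 351 in control roots, against 7.18, 2.81 and 20.5 in control shoots. The thionin THI2.2, an antimicrobial peptide, had 5.62, 7.63 and 3.28 in control roots, against 193, 229 and 117 in control shoots, at -3.49 (SE 0.25). COR15A, a cold-regulated protein of the chloroplast stroma, had 27.5, 24.8 and 39.2 in control roots, against 1179, 1416 and 2152 in control shoots, at -5.23 (SE 0.60). COR15B was at -4.49 (SE 0.82) and varied between shoot arrays, at 239, 973 and 1597. The dehydrin LTI30 and LEA27 (AT2G46140) were higher in root at 2.27 and 2.64.

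Among signalling genes, GH3.17, which conjugates auxin to glutamate, was higher in root at 2.66 (SE 0.21), with 233, 159 and 194 in control roots and 16.3, 16.4 and 33.6 in control shoots. IAA29, a repressor of auxin response, was lower in root (adjusted p = 0.000557). The peptide genes RALFL22 and RALFL32 were at 2.36 and 1.99, and RALFL34 was at -1.28. Of 8 calmodulin-like genes, 4 were higher in root and 0 in shoot, with CML38 at 2.12 and CML43 at 2.05. The U-box ubiquitin ligases PUB23 and PUB22, which act in stress responses, were at 3.04 and 2.58. PUB23 had 161, 123 and 110 in control roots, against 6.12, 2.78 and 10.1 in control shoots. Two-component response regulators had 2 of 6 higher in shoot and 0 in root, with RR16 at -1.96. Among IQ-domain proteins, which bind calmodulin, iqd21 and IQD24 were at -3.49 and -3.38.

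Of 4 genes of stomatal development, all were called higher in shoot, 1 of them at least 4-fold. However, 2 of them, SPCH and MUTE, were below the 40th percentile of signal in both organs and were removed by the filter on dim probe sets. STOMAGEN, a peptide that promotes stomata, had 0.845, 1.24 and 0.916 in control roots, against 270, 235 and 243 in control shoots, at -4.44 (SE 0.14, adjusted p = 4.53e-09). The stomatal factors SPCH, FMA and MUTE were lower in root at -1.45, -1.07 and -0.86, with shoot means of 27.6, 56.6 and 10.9. In Cs plants MUTE was not called, at -0.18 (limma, adjusted p = 0.239). Of the leaf genes, YAB5, YAB3 and NGA1 were at -2.76, -2.41 and -2.37, while AN, which shapes leaf cells, was higher in root at 1.35. Of 11 root development genes, 6 were higher in root and 1 in shoot. UPB1, a factor that balances growth and differentiation in the root tip, had 58.9, 90.8 and 77.2 in control roots, against 0.512, 7.05 and 4.95 in control shoots, at 2.52 (SE 0.25). LBD16 of lateral root initiation was at 1.13. LPR2, a multicopper oxidase of the root's phosphate response, was the member lower in root, at -1.57 (SE 0.15).

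In the MADS-box family 34 of 43 members were below the 40th percentile of signal in both organs, and 37 were not called. AGL42 and AGL21 were higher in root at 3.11 and 1.92, and AGL87 and AGL24, the second a promoter of flowering, were lower in root at -3.24 and -2.50. The bZIP factor bZIP44 was at 2.84 (SE 0.35). Among WRKY factors 4 of 7 were higher in root, led by WRKY6 at 1.67.

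Genes of cell division differed little. Of 19 mitosis and replication genes, 4 were higher in root and 0 in shoot, a share near the background for root, and their log2 differences lay between -0.28 and 0.77. Of 7 tubulins, TUB1 at 1.56 and TUB9 at 0.65 were higher in root. TUA6, whose sign turned with the scaling, had mean signals of 1555 in roots and 1583 in shoots and was not called, at -0.01 (adjusted p = 0.964).

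Ratio and absolute signal gave different orders in both organs. Among probe sets called with the root and shoot arrays apart, which held for 52% of all probe sets whether called or not, the 100 largest ratios and the 100 largest signal differences shared 37 probe sets in root and 44 in shoot. The median log2 difference of the 100 largest signal differences was 2.99 in root. In shoot it was 4.84 in size. A mean signal of at least 3000 was reached by 41 probe sets in roots and 117 in shoots, and the 100 brightest probe sets of an array held 9.77% to 10.7% of its signal in roots and 13.2% to 14.4% in shoots. A further rule took probe sets called higher in an organ and bright there, with a mean signal of at least 200. Their mean signal in the other organ had to lie below its 40th percentile (28.1 in shoots, 30.9 in roots). Of all 22746 probe sets, 135 passed for roots and 311 for shoots.

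The 12 largest root ratios among probe sets that name 1 gene ran from 5.17 to 5.87. They belonged to loci without a symbol of their own in the annotation used here, with F6'H1 known by its synonym. Their order depended on the pseudocount. AT4G15390 led as reported at 5.87, but with the pseudocount of 44 it was at 4.61, behind AT4G22212 at 4.77. AT4G15390 had 1359, 1475 and 1464 in control roots, against 3.1, 7.58 and 46.3 in control shoots. AT2G21045 had 1527, 1656 and 1579 in control roots, against 5.52, 30.7 and 40.6 in control shoots, at 5.60 (SE 0.55). By signal difference the order was led by MT1C, a metallothionein that binds metal ions, with 3576, 3588 and 4316 in control roots, against 830, 862 and 964 in control shoots. Its adjusted p was 3.84e-07 in limma. A call and root and shoot arrays that do not overlap were conditions for entering these lists, so neither is a separate result. PYK10 was next by signal, and AT1G52300 had one of the largest signal gains at a ratio of 0.81 on the log2 scale, with 3551, 4850 and 4454 in control roots and 2366, 2492 and 2413 in control shoots. Its call was lost without control root replicate 2. Of the 12 genes by ratio and the 12 by signal, 4 were the same in root.

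In shoot, 3 genes appeared on both lists of 12. ECS1 led by ratio, with 31.4, 3.75 and 7.21 in control roots against 5225, 4504 and 5614 in control shoots, at -7.83 (SE 0.85, adjusted p = 1.15e-05). LHCB4.2 and AT2G25510 were the others. The largest signal difference was that of LHCB4.1, with means of 143 in roots and 5908 in shoots. Plastid genes took 5 of the 12 places by signal and 0 by ratio, and psbM averaged 1599 ± 222 in roots (SD, n = 3).

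The same contrast was fitted to the 6 arrays of Cs plants alone. It gave 907 probe sets (3.99%) at least 4-fold higher in root and 1222 (5.37%) at least 4-fold higher in shoot. The Cs arrays do not enter the control means, but they supply part of the spread behind the control calls. The counts of shared calls below are therefore not a replication in separate arrays. By adjusted p alone, 23.9% of all probe sets were higher in root and 15.3% higher in shoot in Cs plants. Of the 858 that passed the 4-fold rule in control roots, 853 were called higher in Cs roots and 761 were at least 4-fold. For the 1280 of control shoots the counts were 1272 and 1163. None of them was called in the opposite direction. Cs root replicate 2 stood apart from the other Cs root arrays in photosynthesis genes, with LHCB4.2 at 75.7, 450 and 46.6 in Cs roots, against 5011, 4781 and 4949 in Cs shoots, and its part in these counts was not tested. The same array enters the spread used for the control comparison, which with the 6 control arrays alone gave 5659 probe sets higher in root and 3477 higher in shoot. A test of whether the root minus shoot difference itself differed between control and Cs plants called 0 of 22746 probe sets at an adjusted p under 0.05 in limma, with 704 at an unadjusted p under 0.05. Control and Cs shoot arrays of the same number deviated together (correlations of 0.602, 0.306 and 0.335), so the comparisons are not fully independent. With organ and number as a block the same test called 0, with 1400 at an unadjusted p under 0.05.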

How the data were processed

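Total RNA of Arabidopsis thaliana organs was labelled with biotin and hybridised to ATH1 arrays, with groups and replicate numbers taken from the sample titles. The deposited values are MAS5 intensities, linear values with a column for each array, per the submitters' processing notes, which give no version. Detection calls, background settings and the array's genome build are not stated in the labels or files read for this work. Precision is limited by having 3 arrays per group. Each array's 2% trimmed mean was 100, array medians were 41.1 to 49.6, and 0 pairs of arrays were identical.

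Of 22810 probe sets, 64 are array controls. Of the rest, 13513 name 1 gene in GEO's platform annotation, 503 name several and 8730 are unlisted there and unnamed here. Symbols came from the RefSeq table of TAIR10.1 (13436 matched, 1551 with a symbol beyond the locus). Probe sets of plastid genes were found by chromosome and the other families by symbol, so families are incomplete, and genes known by locus alone enter none unless a synonym names them.

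Signals were transformed as log2(signal + 11) and fitted with limma 3.58.1 in R 4.3.3 to all 12 arrays (4 group means, 8 residual degrees of freedom, eBayes with intensity trend, no filter on dim probe sets). P-values were adjusted by Benjamini-Hochberg over all 22746 probe sets, with a threshold of 0.05. A second rule added a log2 difference of at least 2 in size. Cs plants were fitted on their 6 arrays alone. The fit was tested on simulated data. No set test was made, and family counts and medians are descriptions to be read beside the percentages over all probe sets.

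Named are the 12 largest ratios and signal differences in each direction among called 1-gene probe sets with arrays apart, and in each family up to 4 called members in the main direction, 2 in the other and the brightest. Other genes named were chosen after their values were seen. Members, lists and tests were chosen with earlier results of these data known, and the families were rewritten to the annotation's symbols after it was seen. Alternatives were the pseudocount, a filter, normalization, trend, array weights, the 6 control arrays alone, a replicate block and leaving out arrays.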

Additional observations from a re-analysis of the deposited data

How the results depend on the processing

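Ratios against dim signals depend on the pseudocount, and so do counts by size. Probe sets at least 4-fold higher in root numbered 1332 with the lower pseudocount and 347 with the higher one of 44, against 858, and those at least 4-fold higher in shoot numbered 785 with 44, against 1280. Leaving out 1 array gave 845 to 910 and 1271 to 1306. The counts by p-value alone stayed within 1.5 times of the reported ones in every alternative run, at 5127 to 6840 for root and 3290 to 4246 for shoot. A filter on dim probe sets, which kept 15508, left 2 of the 4 stomatal genes called because it removed the others from the test. No family median changed sign in the 14 families followed through the alternatives. Of 272 probe sets followed by the naming rule, 259 were called, and 44 lost the call in at least 1 alternative, most often when arrays were left out. Genes near 0 changed sign: TUA6 was at 0.28 after quantile normalization, and lay between -0.12 and 0.13 when 1 array was left out (0.05 without control root replicate 3). PRXR1 was at -0.04 after median centring. HCT was at 0.09 without the arrays numbered 1 and between -0.45 and 0.16 when 1 array was left out. GAMMA-VPE, which was not called, lay between -0.47 and 0.14. None of the 4 was called as reported, and the causes were not tested.

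Replicate numbers are shared between groups. Same-numbered root and shoot arrays deviated from their group means with correlations of 0.158, 0.107 and 0.0533, and differently numbered ones with -0.127 to 0.0661. For each root array the highest value was with the same-numbered shoot array. These values were small and the numbers were not taken to pair root with shoot, but a weak pairing is not excluded. Control and Cs arrays of the same organ and number correlated at 0.602, 0.306 and 0.335 for shoots. For roots the correlations were 0.369, -0.0223 and 0.302. The main fit took the arrays of neither organ as paired, so its 8 residual degrees of freedom treat them as separate. The block for the test between control and Cs plants paired control and Cs arrays in both organs and was chosen after seeing the data. With the replicate block over 12 arrays, 6551 probe sets were higher in root and 3947 in shoot, and over the 6 control arrays 5621 and 3512. Depth has no counterpart here, and without detection calls the order of dim signals is not interpretable.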

Other observations

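Outside the families, 28 genes with a symbol of their own were at least 4-fold higher in root and 31 at least 4-fold higher in shoot. Over all probe sets the shares were 3.77% and 5.63%. How many such genes lie outside the families was not counted, so these counts give no share of their own. Root genes included OSM34, an osmotin-like protein, with 1599, 512 and 905 in control roots against 11.5, 8.52 and 66.6 in control shoots, a log2 difference of 4.82 (SE 0.62, adjusted p = 4.77e-05 in limma). DI21, a drought-induced gene, had 1185, 1119 and 1572 in control roots against 98.8, 120 and 165 in control shoots, at 3.24 (SE 0.26). HRGP1, a wall glycoprotein, was at 2.73, from a probe set marked as shared between transcripts. BAT1, an acyltransferase that acts on brassinosteroids, was at 2.61.

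Several of the shoot genes encode chloroplast proteins. TRXF2, a thioredoxin of the chloroplast, was at -3.97, NTRC, a thioredoxin reductase, at -2.78, and the thylakoid ascorbate peroxidase TAPX at -3.92. THIC of thiamine synthesis had 23.7, 37.6 and 28 in control roots against 598, 591 and 653 in control shoots, at -3.95 (SE 0.26). FUG1, a chloroplast translation initiation factor, was at -3.47. CCL had 20.4 to 67.2 on the root arrays and varied among the shoot arrays, with 226 on replicate 1 beside 2022 and 3028.

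Methionine sulfoxide reductases of the B type, which repair oxidised proteins, split by member. MSRB9 had 409, 733 and 801 in control roots against 32.1, 36 and 51.1 in control shoots, at 3.66 (SE 0.29). MSRB5 had 852, 1302 and 1092 in control roots against 237, 209 and 241 in control shoots, at 2.17 (SE 0.21). MSRB6, the next protein-coding gene after MSRB5 in TAIR10.1, had 15.6, 33.3 and 20.7 in control roots against 273, 313 and 223 in control shoots, at -3.06 (SE 0.21). MSRB3 was not called, at 0.27. The chaperonin subunits Cpn60beta3 and Cpn60beta4 likewise differed in direction, at 2.30 and -2.36. These genes were chosen after their values were seen.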
